A study of Mus musculus with 14 samples.

Results

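The genes described here are 32 genes that mammalian cells need to build ribosomes and to grow, many of them known targets of the transcription factor MYC. They cover RNA polymerase I, the small nucleolar ribonucleoproteins (snoRNPs), the processing of the small and large ribosomal subunits, and metabolic and translational growth genes. Each gene was represented by the brightest probe set, by its mean over all arrays, among those annotated to that gene alone. This gave values for 30 of the 32, and all 30 were among the 10225 genes tested of 18193 named. Eif2s1 and Mrto4 had no probe set annotated to them alone and were not analysed here.

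The values are log2 expression levels from microarrays of germinal centre B cells, which were sorted by flow cytometry as B220+CD95+PNA+ cells from the spleens of mice 8 to 12 weeks old. The mice were of mixed C57BL/6x129Sv background, had been immunised with sheep red blood cells (SRBC) on days 0 and 5, and were killed on day 12. Every mouse, controls included, carried the Cg1-Cre allele, which is known to drive Cre recombinase from the immunoglobulin gamma 1 locus in B cells activated by antigen. The groups were 4 Crebbp+/+ mice (WT, 1 of them male), 5 Crebbpfl/+ mice (HET, 2 males) and 5 Crebbpfl/fl mice (KO, 3 males), with 1 array for each mouse. Crebbp encodes a histone acetyltransferase, and the arrays address what its loss in 1 or both alleles changes in these cells. Arrays are named by group and by the number in their label.

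Ribosomes are assembled in the nucleolus, where RNA polymerase I makes a long precursor RNA that snoRNPs modify and that processing factors cut and fold into both subunits. MYC, bound to its partner MAX at the DNA letters CACGTG (the E-box), is a classic activator of genes for this work, and MXD and MXI proteins compete with it for MAX. In the germinal centre MYC is known to be made by a small fraction of B cells, those selected to go on dividing.

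Across the series, KO 3 stood somewhat apart, with a median correlation to the other arrays of 0.979 against 0.984 to 0.990 for the others. Of 15 germinal centre B cell markers, all 13 with a probe set of their own were above the level needed for testing, as were 2 of 9 T cell, 0 of 4 erythroid and 6 of 11 myeloid markers. So were 4 of 5 naive or follicular B cell, 6 of 8 plasma cell and 3 of 5 follicular dendritic or stromal markers. The mean of the myeloid markers on each array, relative to its average over arrays, ran from -0.35 to 0.82 in WT, -0.54 to 0.61 in HET and -0.47 to 0.54 in KO. Among markers, KO and WT differed in Rgs13, a germinal centre gene (-0.62, SE 0.12, limma adjusted p = 0.0180), and Sdc1, a plasma cell gene (0.81, SE 0.19, adjusted p = 0.0404), and in 0 of the other 12 germinal centre and 5 plasma cell markers tested. Sdc1 was the only plasma cell marker with a positive change, the other 5 were negative, and the median of the 6 was -0.15. Of the 13 germinal centre markers 4 changes were positive and 9 negative, with a median of -0.07. The mean of the plasma cell markers ran from -0.04 to 0.09 in WT, -0.11 to 0.17 in HET and -0.12 to 0.06 in KO. The part of the plasma cell markers in the levels of the growth genes was not tested. Among the 4 Crebbp probe sets KO was below WT by 0.30 to 0.86 on the log2 scale, and 2 of them passed the test. Which part of the transcript these probes read was not analysed here, so they do not measure how completely the gene was deleted. Each array received equal amounts of amplified material and RMA makes the arrays' distributions alike, so a change in total RNA per cell would not appear here, and in sorted bulk cells fewer cells making a transcript and less of it per cell cannot be told apart.

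The promoters are shown because CACGTG is the sequence MYC is known to bind. RefSeq (GRCm38.p6) start sites were available for 27 of the 32 genes, as windows of 300 bases from 250 before to 50 after the start. CACGTG, which reads the same on both strands, lay in 6 of the 27 genes (22.2%, counting a gene if any of its windows held it), against 12.1% of 8358 tested genes and 8.09% of all 27025 genes with a window. The weaker form CACGCG, or its other strand CGCGTG, lay in 9 of 27 (33.3%), against 20.8% of tested genes and 10.5% of all genes. A match shows only that the letters are there, not that a factor binds. The 6 genes with CACGTG include Eif4e, and the promoters of Odc1 and Ppan, the genes with the largest differences between KO and WT, held the weaker form only. In the sequences below, written 5′ to 3′ on the gene's own strand, capitals mark these letters.
Nop2 chr6:125131796-125131855 (+ strand): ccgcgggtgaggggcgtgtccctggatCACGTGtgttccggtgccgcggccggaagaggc
Pes1 chr11:3963950-3964004 (+ strand): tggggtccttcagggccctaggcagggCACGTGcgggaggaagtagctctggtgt
Utp20 chr10:88826765-88826789 (- strand): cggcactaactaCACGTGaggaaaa
Mybbp1a chr11:72441355-72441376 (+ strand): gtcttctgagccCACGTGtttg
Wdr43 chr17:71616205-71616244 (+ strand): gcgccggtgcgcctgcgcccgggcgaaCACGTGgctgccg
Eif4e chr3:138527018-138527236 (+ strand): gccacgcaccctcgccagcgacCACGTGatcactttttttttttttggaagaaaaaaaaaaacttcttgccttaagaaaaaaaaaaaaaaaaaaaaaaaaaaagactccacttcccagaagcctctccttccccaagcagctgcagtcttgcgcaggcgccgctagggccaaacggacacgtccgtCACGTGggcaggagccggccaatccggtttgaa
Odc1 chr12:17544623-17544902 (+ strand): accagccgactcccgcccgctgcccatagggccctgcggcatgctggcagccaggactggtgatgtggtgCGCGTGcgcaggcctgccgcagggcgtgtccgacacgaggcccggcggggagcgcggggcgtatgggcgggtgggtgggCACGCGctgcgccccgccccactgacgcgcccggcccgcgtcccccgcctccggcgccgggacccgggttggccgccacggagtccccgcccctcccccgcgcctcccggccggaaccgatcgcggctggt
Ppan chr9:20887925-20888204 (+ strand): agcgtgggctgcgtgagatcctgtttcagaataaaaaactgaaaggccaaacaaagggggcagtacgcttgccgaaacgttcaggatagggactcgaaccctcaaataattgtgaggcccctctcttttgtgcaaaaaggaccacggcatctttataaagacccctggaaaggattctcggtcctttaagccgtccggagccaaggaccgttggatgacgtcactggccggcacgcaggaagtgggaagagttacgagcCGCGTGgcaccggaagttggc

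The E-box lies 60 bases before the start of Nop2 and, in Eif4e, 228 and 64 bases before it. Distances run from the start to the first letter of the match. In Pes1, Wdr43, Utp20 and Mybbp1a it lies after the start, by 2, 17, 37 and 40 bases. The weaker form lies 180 and 101 bases before the start of Odc1 and 9 bases after that of Ppan.

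The first question was whether homozygous loss of Crebbp shifted these genes. It did not do so detectably: with limma, adjusting for sex and with Benjamini-Hochberg correction over all tested genes, between KO and WT 0 of the 30 genes reached an adjusted p under 0.05, where 249 of 10225 tested genes did (2.44%). At an unadjusted p under 0.05 there were 3 of 30 (10%, against 13.1% of all tested genes): the polyamine enzyme gene Odc1, the large subunit factor gene Ppan and the translation factor gene Eif4e. The median change of the 30 genes was -0.02 on the log2 scale, beside -0.00 for all tested genes. The median size of a change regardless of sign was 0.048 against 0.084. That comparison was not matched for brightness, and most of the 30 genes had means above 9.93, the highest array median of the tested genes. The change was positive in 8 of 30 genes (26.7%, against 49.0% of all tested genes). That count moved with single arrays, to 16 without WT 4 and 14 without KO 4, and it was 15 among females alone. The 95% confidence intervals of the 30 changes ran from -0.54 for Ppan to 0.35 for Cad, and 28 of 30 lay wholly within 0.5 of 0 on the log2 scale, which is 1.41-fold.

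**Figure D1:**
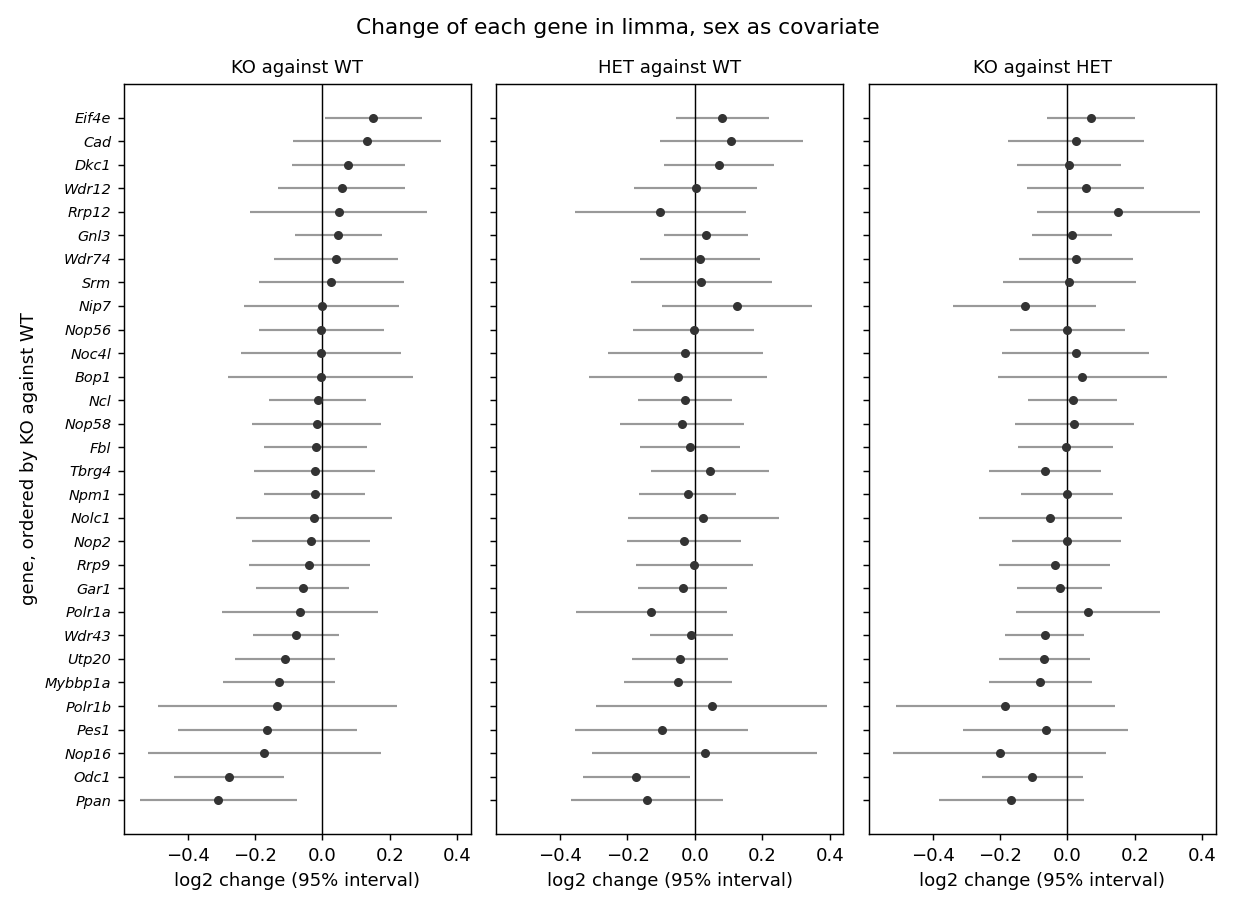
Change of each of the 30 genes (horizontal axis, log2 difference; bars, 95% confidence intervals from limma) for KO against WT, HET against WT and KO against HET, with the genes in rows ordered by their change between KO and WT. Most intervals include 0; those of Odc1, Ppan and Eif4e exclude it for KO against WT, as does that of Odc1 for HET against WT, before correction over all genes.

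RNA polymerase I transcribes the ribosomal RNA precursor, and Polr1a and Polr1b encode its largest subunits. Mybbp1a encodes a nucleolar protein that binds MYB and is involved in ribosomal RNA synthesis. All 3 changes between KO and WT were negative, from -0.13 to -0.07, and 0 of 3 passed the test.

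Mybbp1a had log2 levels of 12.06, 12.02, 12.19 and 12.23 in WT. The HET levels were 12.05, 12.16, 12.02, 12.04 and 12.05, and the KO levels were 11.85, 11.86, 12.14, 12.11 and 11.89. KO 1, 2 and 5 lay below every WT array while KO 3 and KO 4 lay among the WT arrays, so the groups overlapped. The KO change was -0.13 (SE 0.08, limma adjusted p = 0.539), and it was 0.03 among females alone. Polr1b varied most within groups of the 30 genes (SD 0.260), with KO levels of 7.65, 7.21, 7.35, 7.91 and 8.11. Its change of -0.13 (SE 0.16) was smaller than that spread.

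Polr1a had log2 levels of 8.66, 8.75, 8.91 and 9.09 in WT and of 8.82, 8.83, 8.76, 8.50 and 8.70 in HET. In KO they were 8.60, 8.66, 8.91, 8.84 and 8.89. WT 4 was the highest of the 14 arrays and HET 4 the lowest, and the 3 groups overlapped. The difference was -0.13 for HET against WT (SE 0.10) and -0.07 for KO against WT (SE 0.11). The first was -0.0015 without WT 4, -0.08 without HET 4 and -0.19 without WT 1.

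The snoRNPs guide chemical modification of ribosomal RNA. Fbl, Nop56 and Nop58 encode core proteins of the box C/D particles, Dkc1 and Gar1 encode proteins of the box H/ACA particles, Rrp9 encodes a U3 snoRNP protein, and Nolc1 encodes a chaperone of both kinds. Of these 7 genes 0 passed the test for KO against WT. Their changes ran from -0.06 for Gar1 to 0.08 for Dkc1, with a median of -0.02, and 1 of 7 was positive. Fbl, the methyltransferase of its particle, ranged from 12.49 (HET 4) to 12.82 (HET 2) over the arrays and changed between KO and WT by -0.02 (SE 0.07). The change was -0.00 (SE 0.09) for Nop56 and -0.02 (SE 0.09) for Nop58, and -0.04 (SE 0.08) for Rrp9 and -0.03 (SE 0.11) for Nolc1. Each of these changes was at most about its own standard error.

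Dkc1, which encodes the pseudouridine synthase, had log2 levels of 12.03, 12.03, 11.82 and 12.07 in WT. The HET levels were 12.12, 11.90, 11.98, 12.22 and 12.14, and the KO levels were 12.15, 12.01, 12.15, 12.09 and 12.04. KO 1, 3 and 4 lay above every WT array, while KO 5 lay inside the WT range and KO 2 lay below WT 1, 2 and 4. The change was 0.08 (SE 0.08, limma adjusted p = 0.801), but the other probe sets of Dkc1 gave -0.08 and -0.18, so the probe sets disagree in direction.

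The small subunit processome assembles on the new precursor RNA. Utp20 and Wdr43 encode parts of it, Noc4l and Rrp12 encode factors for maturation and export of the small subunit, and Ncl encodes nucleolin. The changes between KO and WT ran from -0.11 for Utp20 (SE 0.07) to 0.05 for Rrp12, with a median of -0.01 and 1 of 5 positive, and 0 of 5 passed the test. Wdr43, whose promoter holds an E-box, changed by -0.08 (SE 0.06) and was among the least variable of the 30 genes. The change was -0.00 (SE 0.11) for Noc4l and -0.01 (SE 0.07) for Ncl.

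Rrp12 had the largest positive difference between KO and HET. Its log2 levels were 8.57, 8.53, 8.56 and 8.83 in WT and 8.76, 8.54, 8.49, 8.17 and 8.61 in HET. In KO they were 8.62, 8.69, 8.92, 8.57 and 8.51. KO 3, WT 4 and HET 1 were the highest arrays and HET 4 the lowest, and the groups overlapped. The KO change against HET was 0.15 (SE 0.11), and it was 0.04 without HET 4, 0.07 without KO 3 and 0.24 without HET 1.

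Large subunit maturation is the largest role group, with 10 genes measured. Pes1, Bop1 and Wdr12 encode the PeBoW complex, Nop2 encodes a ribosomal RNA methyltransferase, Gnl3 encodes nucleostemin, Npm1 encodes nucleophosmin, and Ppan, Nop16, Nip7 and Wdr74 encode further assembly factors. Between KO and WT, 3 of 10 changes were positive and the median was -0.01, with 0 of 10 past the test. In the PeBoW complex the change was -0.16 (SE 0.12) for Pes1 and -0.01 (SE 0.13) for Bop1. Nop2, with an E-box upstream of its start, changed by -0.03 (SE 0.08). The change was 0.05 (SE 0.06) for Gnl3, -0.02 (SE 0.07) for Npm1 and 0.04 (SE 0.09) for Wdr74. The mean of these genes on each array, relative to each gene's average over arrays, ran from 0.02 to 0.05 in WT. In KO it ran from -0.09 to -0.00, so those groups did not overlap. HET spanned both, from -0.16 to 0.11. This mean includes Ppan, whose KO levels all lay below WT, and it was not computed without Ppan. The nearest arrays of KO and WT were KO 3 (-0.002) and WT 1 (0.018), with Ppan levels of 10.61 and 10.90. The separation is therefore not shown for the genes other than Ppan. In each of the other role groups the KO and WT ranges of the mean overlapped.

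Ppan encodes a factor for early steps of large subunit assembly and had the largest KO change of the 30 genes. Its log2 levels were 10.90, 10.92, 10.96 and 11.01 in WT. In HET they were 10.97, 11.00, 10.81, 10.40 and 10.83, and in KO 10.62, 10.63, 10.61, 10.54 and 10.76. All KO levels were under the lowest WT level, and HET spanned nearly the whole range, with HET 4 the lowest array of all. The means were 10.95 ± 0.05 in WT (SD, n = 4), 10.80 ± 0.24 in HET (SD, n = 5) and 10.63 ± 0.08 in KO (SD, n = 5). The KO change was -0.31 (SE 0.11), which failed the correction (limma adjusted p = 0.195). HET against WT gave -0.14 (SE 0.10) and KO against HET -0.17 (SE 0.10). Of 26 alternative settings 1 gave a call, the fit without HET 4 (-0.35, adjusted p = 0.0105). At the other end the change was -0.23 without KO 3 and WT 4 (adjusted p = 0.512).

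Nop16 had the largest negative difference between KO and HET, -0.20 (SE 0.15). Its KO levels were 8.98, 8.91, 8.59, 9.38 and 9.40, against 9.15, 9.34, 9.14, 9.11 and 9.51 in HET. The WT levels were 9.05, 9.23, 9.23 and 9.37. KO 1, 2 and 3 lay below every HET and WT array, and KO 4 and KO 5 lay at the upper end. The difference from HET was -0.04 without KO 3 and -0.32 without KO 4. A second Nop16 probe set changed by 0.10 between KO and WT where the brightest gave -0.17.

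Nip7 levels were 11.99, 11.92, 11.67 and 11.62 in WT and 11.85, 11.78, 11.95, 12.04 and 12.01 in HET. In KO they were 12.00, 11.82, 11.57, 11.88 and 11.75. The groups overlapped. The brightest Nip7 probe set gave -0.0015 for KO against WT (SE 0.11) and 0.13 for HET against WT (SE 0.10), and leaving out single arrays moved the latter between 0.03 (without WT 4) and 0.19 (without WT 1). The second Nip7 probe set gave -0.15 (SE 0.07) for KO against WT and -0.08 (SE 0.07) for HET against WT, so the probe sets disagree in direction for HET. Wdr12 levels were 10.95, 10.91, 10.89 and 10.82 in WT and 10.97, 10.91, 10.98, 10.79 and 10.76 in HET. In KO they were 10.91, 10.89, 11.22, 10.82 and 10.77, with KO 3 above every other array. The KO change of Wdr12 was 0.06 (SE 0.09) against WT and 0.05 (SE 0.08) against HET, and the latter was -0.03 without KO 3.

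The growth metabolism and translation genes are Odc1, ornithine decarboxylase, the first enzyme of polyamine synthesis, Srm, spermidine synthase, Cad, the enzyme that starts pyrimidine synthesis, Eif4e, the cap-binding translation initiation factor, and Tbrg4, which encodes a mitochondrial RNA-binding protein. Between KO and WT, 3 of 5 changes were positive, with a median of 0.03 and a range of -0.28 to 0.15.

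Odc1 had the smallest p of the 30 genes. Its log2 levels were 12.29, 12.37, 12.47 and 12.31 in WT. They were 12.22, 12.19, 12.22, 12.17 and 12.08 in HET and 11.87, 12.07, 12.27, 12.09 and 11.98 in KO. Every HET and every KO array was below every WT array, while HET and KO overlapped. The means were 12.36 ± 0.08 (SD, n = 4), 12.18 ± 0.06 (SD, n = 5) and 12.06 ± 0.15 (SD, n = 5). The KO change against WT was -0.28 (SE 0.08), the HET change -0.17 (SE 0.07) and the KO change against HET -0.10 (SE 0.07), and none passed the correction (limma adjusted p = 0.0809 for KO against WT). That p lay on either side of the threshold by setting: it was 0.0383 without sex in the fit, 0.0364 with limma's trend and robust options, 0.0324 with array weights and 0.0266 without KO 3, but 0.434 among females alone. The Odc1 probe set used is marked by its maker as open to cross-hybridisation, and the other Odc1 probe sets gave -0.34 (SE 0.07) and -0.29 (SE 0.12). In the fit over all probe sets the limma adjusted p was 0.0356 and 0.403 for these, and 0.150 for the probe set used. Of 60 probe sets fitted for the 30 genes, 1 had an adjusted p under 0.05.

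**Figure D2:**
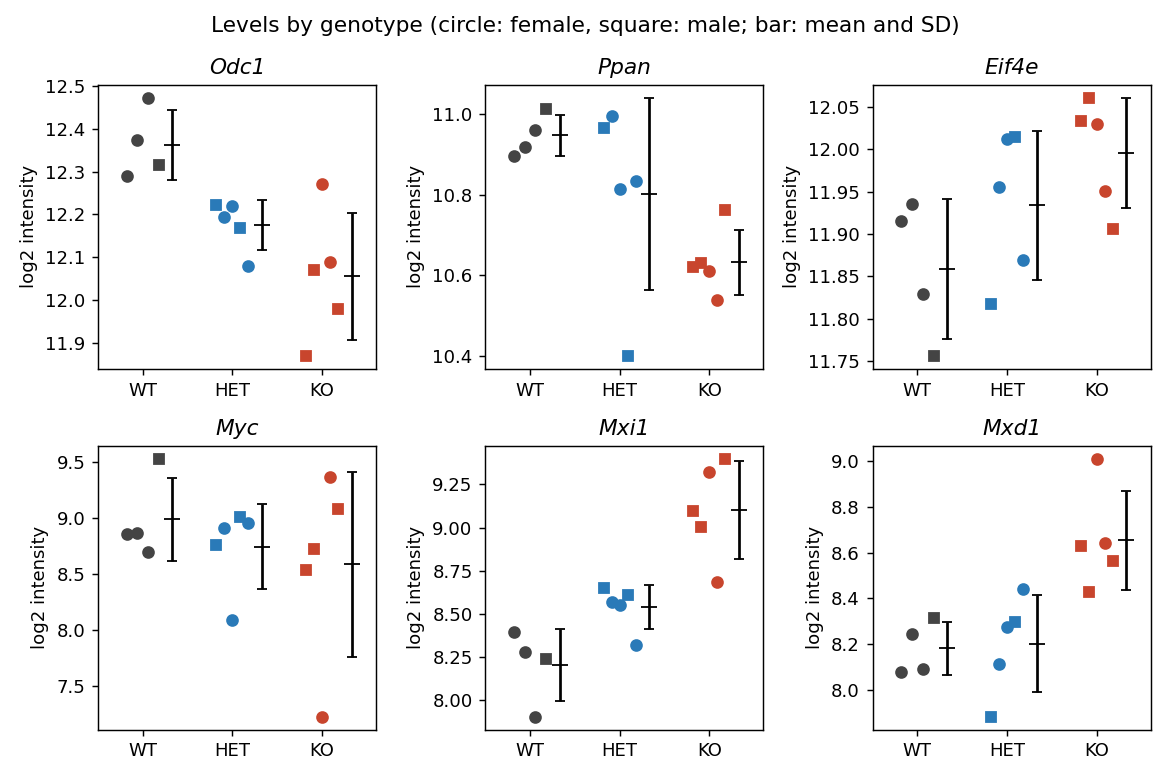
Log2 level (vertical axis) of Odc1, Ppan, Eif4e, Myc, Mxi1 and Mxd1 on each array by group (points; bars, mean and SD). KO lies below WT without overlap for Odc1 and Ppan and above it for Mxi1 and Mxd1, while the groups overlap for Eif4e and Myc.

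Eif4e, the gene with an E-box at 2 places in its window, was the only one of these genes with a positive KO change at an unadjusted p under 0.05. Its log2 levels were 11.91, 11.94, 11.83 and 11.76 in WT. They were 11.82, 11.96, 12.01, 12.01 and 11.87 in HET and 12.03, 12.06, 12.03, 11.95 and 11.91 in KO. KO arrays lay above the top of the WT range except for KO 5, which fell inside it, and HET overlapped both groups. The KO change was 0.15 (SE 0.07, limma adjusted p = 0.342), and its other probe sets gave 0.11 and 0.13.

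Cad levels were 9.67, 9.77, 9.71 and 9.77 in WT. They were 9.85, 9.93, 9.88, 9.66 and 9.76 in HET and 9.59, 9.63, 10.22, 9.81 and 9.80 in KO. KO 3 was the highest of all arrays and KO 1 the lowest, so KO enclosed both other groups. The change was 0.13 (SE 0.10, limma adjusted p = 0.685), and leaving out single arrays moved it between 0.01 and 0.23. The change was 0.03 (SE 0.10) for Srm and -0.02 (SE 0.08) for Tbrg4.

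More than 1 probe set above the testing level was available for 18 of the 30 genes. In 15 of the 18 all probe sets gave the same sign for KO against WT, and in Dkc1, Ncl and Nop16 they gave both signs.

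The heterozygous comparison asks whether losing 1 allele is enough. In HET against WT, 0 of 30 genes passed the test (limma adjusted p under 0.05), beside 0 of 10225 tested genes (0.0%). At an unadjusted p under 0.05 there was 1 of 30, Odc1 (3.33%, against 2.74% of tested genes). The change was positive in 12 of 30 (40.0%, against 50.7%), with a median of -0.01. That count was 21 with array weights, and leaving out single arrays moved it from 9 (without WT 1 or HET 2) to 19 (without WT 4). Every one of the 30 intervals lay within 0.5 of 0, the widest bounds being -0.37 for Ppan and 0.39 for Polr1b.

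Between KO and HET, 0 of 30 genes passed the test (limma), against 27 of 10225 (0.264%), and 0 of 30 had an unadjusted p under 0.05, against 6.39%. The change was positive in 13 of 30 genes (43.3%, against 47.3%), with a median of -0.00. Leaving out single arrays moved that count from 5 (without KO 3) and 8 (without HET 4) up to 18 (without HET 1). Between KO and WT, the groups did not overlap for 2 of 30 genes with KO lower (Odc1 and Ppan, against 3.65% of tested genes) and 0 with KO higher (against 2.87%). Between HET and WT they did not overlap for Odc1 only, with HET lower (0.469% of tested genes) and 0 with HET higher (1.03%), and between KO and HET for 0 of 30 (0.822% lower and 0.606% higher). These comparisons share arrays, so they are not separate evidence.

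Males and females were unevenly spread over the groups. In male against female, 0 of 30 genes passed the test (limma), against 3 of 10225 (0.0293%), and 0 of 30 had an unadjusted p under 0.05, against 6.38%. The change was positive in 6 of 30 genes (20%, against 51.1%). Among the males, HET 4 was the lowest of the 14 arrays for 12 of the 30 genes and KO 1 for 6, while WT 4 was the highest for 5. How far this count rests on single arrays was not tested.

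**Figure D3:**
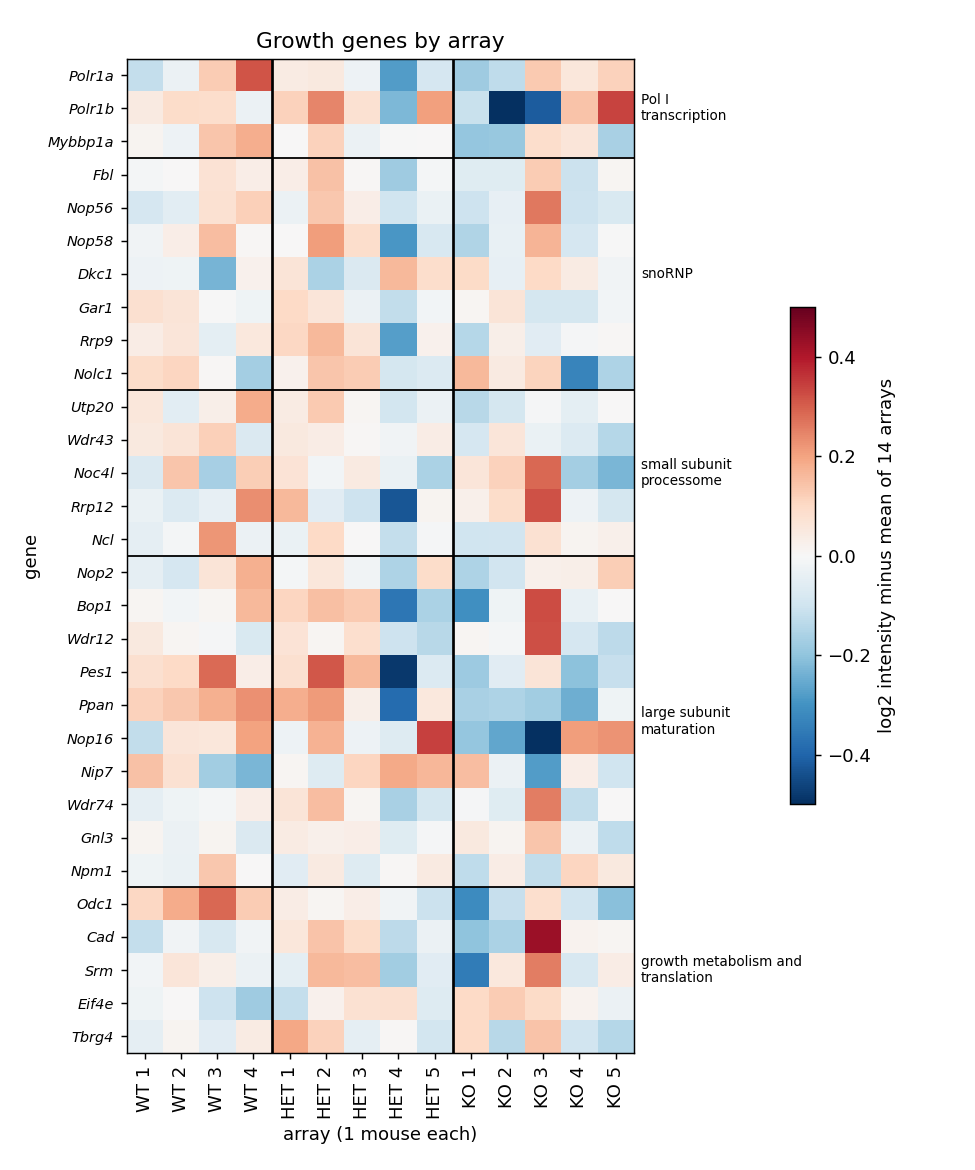
Log2 level of each of the 30 genes (rows, grouped by role) on each of the 14 arrays (columns, grouped by genotype), shown as the difference from that gene's mean over the arrays. HET 4 is the lowest array in 12 rows and KO 3 the highest in 9.

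The mean of the 30 genes on each array, with every gene first centred on its average, gave a single level of the group. It was 0.002, 0.025, 0.039 and 0.045 in WT. In HET it was 0.044, 0.094, 0.032, -0.13 and -0.008, and in KO it was -0.084, -0.057, 0.069, -0.043 and -0.027. HET held both the highest array, HET 2, and the lowest, HET 4, and in KO every array but KO 3 was below WT. The group means were 0.03 ± 0.02 (SD, n = 4), 0.01 ± 0.08 (SD, n = 5) and -0.03 ± 0.06 (SD, n = 5). With sex in the fit KO differed from WT by -0.04 and HET from WT by -0.01, both within the pooled spread between arrays of one group (SD 0.063).

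HET 4 was the lowest of the 14 arrays for 12 of the 30 genes, and KO 3 was the highest for 9. HET 4 was also the lowest array for the mean of 39 other small subunit factors (-0.11), 38 other large subunit factors (-0.093) and 11 other snoRNP factors (-0.083). HET 2 was the highest for the first pair of these, at 0.078 and 0.12. KO 3 was high for the other small subunit factors (0.072) and low for the other large subunit factors (-0.088). The mean of 41 ribosomal protein genes stayed between -0.032 and 0.023 on all arrays. Of 76 ribosomal protein genes listed, 43 had a probe set of their own. Most of those tested were very bright, such as Rpl41 with a WT mean of 14.38. Whether such bright probe sets still respond in full to a change was not tested. On HET 4 the mean of the naive B cell markers was the lowest of all arrays (-0.40), and on KO 3 that of the germinal centre markers was (-0.21), and the part of either in these levels was not tested.

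**Figure D4:**
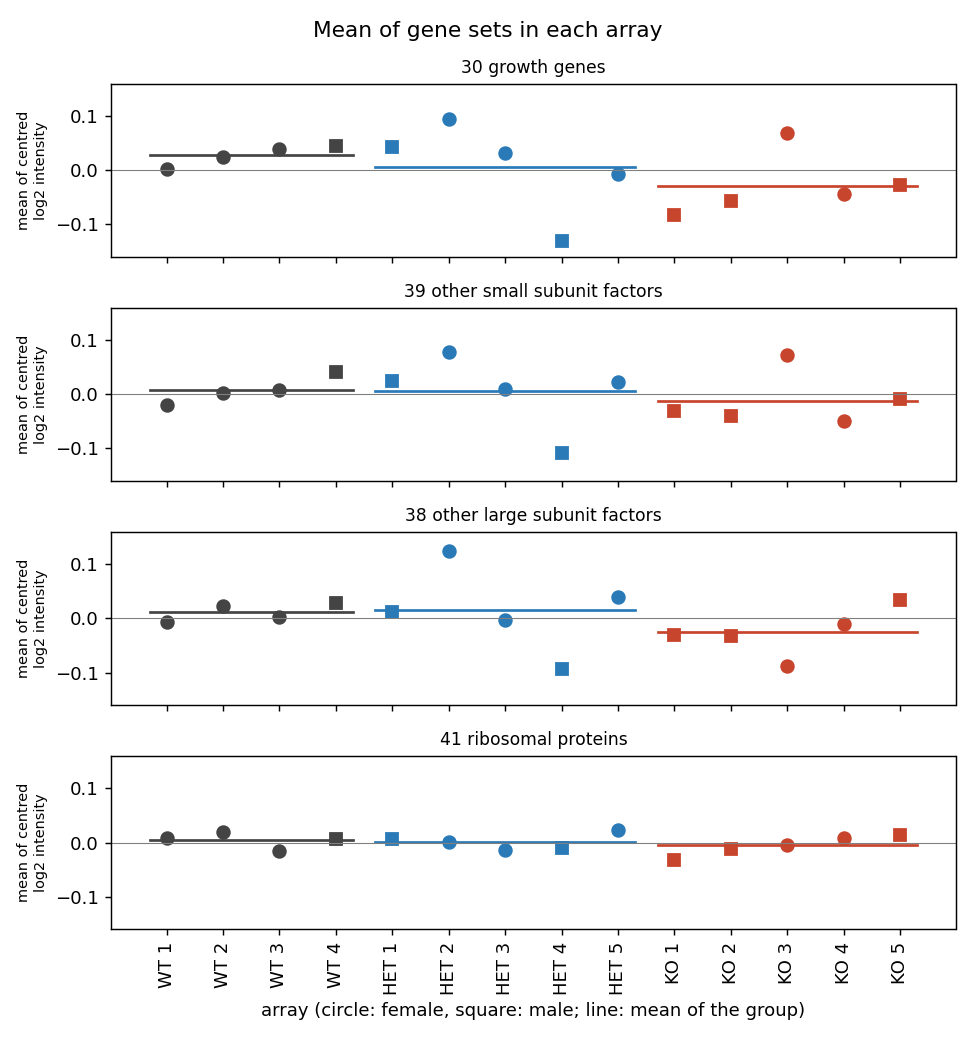
Mean on each array (vertical axis, log2 units relative to each gene's average; circles, females; squares, males; lines, group means) for the 30 growth genes, 39 other small subunit factors, 38 other large subunit factors and 41 ribosomal protein genes. HET 4 is the lowest array in the first 3 panels, and the mean of the ribosomal protein genes, most of them very bright, varies least.

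After removing group and sex, the 30 genes varied together more than pairs of tested genes did on average. The median Pearson r over their 435 pairs was 0.23, against 0.04 for pairs of tested genes, and 291 pairs (66.9%) were positive. This is a description over 14 arrays, in which pairs share arrays and normalisation. The median r was 0.19 to 0.27 when any single array was left out and 0.13 without both HET 4 and KO 3. By role it was highest for the snoRNP genes (0.35 over 21 pairs) and the RNA polymerase I genes (0.34, over only 3 pairs). It was 0.10 among the large subunit genes (45 pairs) and 0.08 among ribosomal protein genes (820 pairs). Fbl, Nop58 and Bop1 followed the mean of the other genes most closely (r = 0.93, 0.91 and 0.89). Nip7 ran opposite to it (r = -0.84, and -0.87 without HET 4 and KO 3). Eif4e (r = -0.48) and Dkc1 (r = -0.42) were also negative, and were -0.28 and -0.72 without HET 4 and KO 3. Without those arrays Nop58 (0.82), Cad (0.79) and Ppan (0.78) followed the mean most closely. The within-group SD of the 30 genes had a median of 0.120, against 0.149 for all tested genes, which were not matched for brightness. It was lowest for Gnl3 and Wdr43 (0.063).

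MYC itself and its partners were measured on the same arrays. Of 12 tested genes of the MYC network, 2 passed the test between KO and WT, Mxi1 and Mxd1, both higher in KO, where 2.44% of all tested genes passed in either direction. Both encode proteins that are known to pair with MAX and to repress genes that MYC activates. Neither passed in HET against WT or KO against HET.

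Mxi1 had log2 levels of 8.39, 8.28, 7.90 and 8.24 in WT. They were 8.65, 8.57, 8.55, 8.61 and 8.32 in HET and 9.10, 9.00, 9.32, 8.69 and 9.40 in KO. Every KO array lay above every HET and WT array. Mxi1 rose by 0.85 (SE 0.14), which is 1.80-fold, between WT and KO (limma adjusted p = 0.00581), and it kept its call in all 14 fits that left out 1 array. HET stood above WT by 0.32 (SE 0.13), and KO above HET by 0.53 (SE 0.13, adjusted p = 0.140). The call was lost among females alone (adjusted p = 0.143), with only the KO and WT arrays in the fit (0.0515) and without both KO 3 and WT 4 (0.113). A second, dimmer Mxi1 probe set changed by 0.08 (SE 0.08).

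Mxd1 had log2 levels of 8.08, 8.24, 8.09 and 8.31 in WT. They were 7.88, 8.11, 8.27, 8.30 and 8.44 in HET and 8.63, 8.43, 9.01, 8.64 and 8.56 in KO. All KO arrays lay above all WT arrays, and the lowest KO array sat just under the highest HET array. Mxd1 rose by 0.52 (SE 0.12), which is 1.44-fold, between WT and KO (limma adjusted p = 0.0427), and differed by 0.04 between HET and WT. The call was close to its threshold and held in 11 of 25 alternative settings. It was lost in 9 of 14 fits that left out 1 array, namely WT 1, 2 or 3, HET 3 or 5, or KO 1, 3, 4 or 5, with adjusted p between 0.0528 and 0.120. The other Mxd1 probe sets gave 0.55 and 0.13 for KO against WT. The brighter of them gave 0.45 (SE 0.16) for HET against WT and 0.10 (SE 0.15) for KO against HET. The probe set used gave 0.48 (SE 0.11) for KO against HET, so these probe sets disagree on the level in HET. The dimmest gave 0.0009 for HET against WT. In the fit over all probe sets the limma adjusted p for KO against WT was 0.0773 for the probe set used.

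Myc was spread widely over the arrays of each group. Its log2 levels were 8.85, 8.86, 8.70 and 9.53 in WT. They were 8.75, 8.90, 8.09, 9.01 and 8.96 in HET and 8.53, 8.72, 7.22, 9.37 and 9.08 in KO. KO 3 and HET 3 were low and WT 4 and KO 4 high, and all groups overlapped. The KO change was -0.56 (SE 0.34), with a 95% interval of -1.29 to 0.18, so these arrays bound it loosely (limma adjusted p = 0.560). Max, which encodes the partner of MYC, had log2 levels of 11.62, 11.65, 11.60 and 11.61 in WT, 11.58, 11.55, 11.42, 11.63 and 11.71 in HET and 11.31, 11.52, 11.27, 11.75 and 11.65 in KO. KO 1, 2 and 3 lay below every WT array and KO 4 and KO 5 above, and the KO change was -0.12 (SE 0.10). Mnt, which encodes another repressor that pairs with MAX, had log2 levels of 10.82, 10.78, 10.98 and 10.99 in WT and 10.58, 10.48, 10.74, 10.70 and 10.69 in KO. Its KO arrays were all below its WT arrays, with a change of -0.25 (SE 0.07) that failed the correction (adjusted p = 0.1004).

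Further genes of the same processes were counted in the same fit for KO against WT, and in each of these lists 0 passed the test (limma). Of 13 RNA polymerase I genes, 5 changes were positive and the median was -0.07, with Ubtf, a factor that opens ribosomal DNA for transcription, at -0.18 (SE 0.09). Of 39 small subunit factors, 16 were positive and the median was -0.01, with Pdcd11 at -0.19 (SE 0.09). Of 38 large subunit factors, 12 were positive and the median was -0.04. Mdn1, a large ATPase that releases assembly factors, was at -0.24 (SE 0.08). Las1l, a factor in the removal of a ribosomal RNA spacer, was at 0.28 (SE 0.14). These medians are descriptions, and the lists were not tested as lists. Of 11 snoRNP factors, 3 were positive and the median was -0.02, with Tcof1 at -0.17 (SE 0.08). Of 33 MYC growth genes, a list that holds Myc itself and in which Myc has the largest change, 12 were positive and the median was -0.05, with the amino acid transporter gene Slc7a5 at -0.28 (SE 0.10) and the purine synthesis gene Ppat at 0.15 (SE 0.06). Of 41 ribosomal protein genes, 24 were positive and the median was 0.01, with Rpl12 at -0.26 (SE 0.10). At an unadjusted p under 0.05 there were 0, 0, 1, 1, 2 and 1 genes in these lists, in the order given, where 13.1% of all tested genes reached it, 2.44% passed the test and 49.0% had a positive change. For HET against WT and KO against HET 0 genes of these lists passed as well, with at most 1 gene of a list at an unadjusted p under 0.05.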

How the data were processed

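Total RNA (25 ng) of sorted cells was amplified, and 3.75 ug of cDNA was labelled with biotin, per the labels' protocols. The authors deposited log2 intensities made with RMA, per the submitters' processing notes; the RMA version is not given in the sources used here. The table held 45101 probe sets, 64 of them controls, and GEO's platform annotation named 34945 with 1 gene, 932 with several and 9160 with none. Each gene's brightest single-gene probe set was used. Genes with a mean above 6.43, the median of all probe sets, were tested: 10225 of 18193.

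Changes were fitted with limma 3.58.1 (R 4.3.3) on all 14 arrays, with group and sex, lmFit and eBayes, Benjamini-Hochberg adjustment over the tested genes, and a threshold of 0.05. Probe sets above the same level were fitted together for the comparison of probe sets. The fit was tested on simulated data. Array means are averages of centred log2 values. Of the 30 genes, those given all their values are any past the test and the 3 higher and 3 lower with the smallest unadjusted p in each genotype comparison, 11 in all. Of the other lists, Myc, Max and the MYC network genes past the test are given array by array, and the other genes named, which are those past the test or up to 2 per list with the smallest p, by their change. Polr1b and Mnt were added after their values were seen. The genes and lists were chosen with earlier results of these data known. No date of a batch is given in the sources used here. At most 23 values were identical between any pair of arrays, so no array was counted as a copy.

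Alternatives covered the filter, the probe set rule, normalisation, the sex term, females alone, the groups fitted, limma's trend, robust and weighting options, a replicate block and leaving out each array.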

Additional observations from a re-analysis of the deposited data

Results flagged for a closer look

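In 48 groups of 4 or 5 arrays (the 11 growth genes given array by array, Myc, Max, Mxi1 and Mxd1, and the array mean of the 30 genes, each in 3 genotypes), 4 held an array separated from the rest by more than the 95% critical value of Dixon's test; chance separates about 1 in 20 groups. HET 2 was high for Mybbp1a at 12.16, the other HET arrays lying at 12.02 to 12.05. WT 4 was high for Rrp12 at 8.83, the other WT arrays lying at 8.53 to 8.57. HET 5 was low for Mxi1 at 8.32, the other HET arrays lying at 8.55 to 8.65. HET 3 was low for Myc at 8.09, the other HET arrays lying at 8.75 to 9.01.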

How the results depend on the processing

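The number of the 30 genes called between KO and WT, 0 in the fit reported, was 1 without sex in the fit, 1 with limma's trend and robust options and 1 with array weights, Odc1 each time, and 0 to 1 when single arrays were left out. It was 0 for HET against WT and for KO against HET under all 26 settings. The difference of the array mean of the 30 genes stayed within -0.06 to -0.00 for KO against WT. Directions reversed for Dkc1 between KO and WT with all probe sets averaged (-0.062), Mybbp1a between KO and WT among females (0.033), Polr1a between HET and WT with array weights (0.0032) and Odc1 between KO and HET among females (0.015). Wdr12 between KO and HET reversed with array weights (-0.042) and without KO 3 and WT 4 (-0.042) and ran from -0.032 (without KO 3) to 0.108 when single arrays were left out; the setting without KO 3 and WT 4 was chosen after seeing the data. No cause was tested. The number of all tested genes called between KO and WT, 249, was 79 among females, 98 with only these groups fitted, 117 with the filter at 9.09, 75 without KO 3 and WT 4, and 144, 161, 146 and 130 without WT 1, 2, 3 and 4. The labels do not say that equal numbers mark a shared litter, batch or day, so the main fit had no replicate block. Same-numbered arrays had r from -0.17 to 0.38, above 0.1 in 9 of 13 pairs. Of 14 arrays, 8 correlated best with an array of their own number. The count expected without pairing was not computed, and whether the numbers mark a shared factor was not tested. With the replicate block the array mean differed by -0.05 between KO and WT and 0 of the 30 genes were called. In that fit 198 genes were called in all and Mxd1 was not called (limma adjusted p = 0.0951). The number of arrays limits the precision.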
